A study of Mus musculus with 10 samples.

Results

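The integrated stress response is represented here by 10 genes, *Nupr1*, *Ddit3*, *Chac1*, *Trib3*, *Atf4*, *Atf5*, *Asns*, *Stc2*, *Sesn2* and *Ddit4*, out of 18193 genes with a symbol on the array. All 19 probe sets that carry 1 of these symbols in the platform's annotation were taken, out of 45101 probe sets. The genes were chosen by their known role together with signals of the same arrays, seen in earlier results, in which several of them stood lower in iPGCs and in somatic cells than in ESCs. The differences of iPGCs and of somatic cells from ESCs are therefore given as a description and were not tested for these genes. The differences between iPGCs and somatic cells and between the lines were tested.

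In the integrated stress response, kinases that sense a lack of amino acids, unfolded proteins in the endoplasmic reticulum, haem shortage or double-stranded RNA phosphorylate the translation factor eIF2. General translation falls, while the mRNA of the transcription factor ATF4 is translated more, and ATF4 then induces genes of amino acid supply, further transcription factors such as CHOP (the product of *Ddit3*) and inhibitors that switch the response off. Because ATF4 is controlled largely in translation, the level of its mRNA is a weaker readout of the pathway than that of its target genes.

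RNA was measured in 5 sorted mouse populations on 10 Affymetrix 430 2.0 arrays, 2 per population, after amplification with the NuGEN Ovation Pico system. Oct4-Gfp iPGCs, in vitro derived primordial germ cells of a line of mixed genetic background with a green reporter for *Oct4* (*Pou5f1*), were sorted as positive for the reporter and bright for cKit. V6.5 iPGCs, of a 129xBL6 F1 line without a transgene, were sorted as positive for SSEA1 and bright for cKit. The somatic populations were the cells of the same kind of culture that were negative for the reporter and cKit (Oct4-Gfp somatic) or for SSEA1 and cKit (V6.5 somatic), and the ESCs were undifferentiated V6.5 cells positive for SSEA1 and cKit. iPGCs and somatic cells came from embryoid bodies (EBs) at day 6 of culture in hanging drops without LIF, and ESC lines were kept on a layer of mouse embryonic fibroblasts. The day is taken from the study's methods, since the labels give a range of days. All cells were released with trypsin before the sort. The line and the sort marker of the day 6 populations changed together, and the ESCs were of 1 line at day 0, so line, sort, day and culture cannot be told apart from one another in the contrasts that mix them.

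The deposited signals had a trimmed mean of 500 on every array, with medians between 53.7 and 91.6. Background was read as the 95th percentile of 44 olfactory receptor probe sets and lay between 12.6 and 25.4. Markers followed the labels. The summed signal of 7 germ cell markers was 18997 to 19617 in iPGCs, 1545 to 2308 in somatic cells and 9984 to 10779 in ESCs, and that of 5 mesoderm markers was 532 to 1016 in iPGCs, 16923 to 19786 in somatic cells and 89.4 to 177 in ESCs. Prdm14 and Dazl lay within background on every somatic array. The *Gapdh* 3'/5' ratio, that of the control probe sets at the ends of the transcript, which increases with degraded or incompletely copied RNA, was 2.02 and 2.37 on the Oct4-Gfp iPGC arrays and 1.51 and 1.63 on the V6.5 iPGC arrays. It was 1.65 and 2.05 on the Oct4-Gfp somatic arrays, 1.74 and 1.73 on the V6.5 somatic arrays, and 1.30 and 1.28 on the ESC arrays. The ESC arrays thus had the lowest ratios and did not overlap with any other group. Nothing read here states that replicates came from separate cultures, so p-values measure only the spread between these samples, and 2 arrays per group limit the precision.

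ATF4 binds, as a dimer with a C/EBP protein, to a composite element with the core TGATGNAA. The window from 250 bases before to 50 bases after each annotated start was searched for this core on both strands in the RefSeq promoter table (GRCm38.p6), in which all 10 genes had an entry. The core stood in 4 of the 10 genes, *Nupr1*, *Chac1*, *Trib3* and *Asns*, against 3.97% of all 32851 windows in the table. A gene can have several windows, as *Atf5* does, so this is a share of windows and not of genes. The 4 promoters are shown up to base 30 after the start, because only these 4 hold the core, with the core in capitals as it reads on the strand of the gene.
Nupr1 (chr7:126625441-126625720, minus strand): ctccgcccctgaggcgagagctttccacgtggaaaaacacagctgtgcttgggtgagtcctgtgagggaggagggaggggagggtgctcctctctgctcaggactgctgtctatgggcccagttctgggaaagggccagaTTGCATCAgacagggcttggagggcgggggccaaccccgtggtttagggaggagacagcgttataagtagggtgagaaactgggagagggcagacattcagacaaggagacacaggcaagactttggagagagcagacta
Chac1 (chr2:119350992-119351271, plus strand): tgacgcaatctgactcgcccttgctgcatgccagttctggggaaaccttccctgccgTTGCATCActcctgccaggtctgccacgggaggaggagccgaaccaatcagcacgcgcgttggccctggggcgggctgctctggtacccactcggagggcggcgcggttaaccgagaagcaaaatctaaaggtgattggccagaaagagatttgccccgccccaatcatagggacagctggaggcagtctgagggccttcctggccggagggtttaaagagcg
Trib3 (chr2:152344031-152344310, minus strand): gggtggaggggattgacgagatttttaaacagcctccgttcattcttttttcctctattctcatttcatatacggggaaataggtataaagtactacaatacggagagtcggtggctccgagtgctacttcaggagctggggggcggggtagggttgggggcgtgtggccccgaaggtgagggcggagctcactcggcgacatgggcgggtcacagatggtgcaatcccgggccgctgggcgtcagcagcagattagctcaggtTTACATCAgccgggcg
Asns (chr6:7693180-7693459, minus strand): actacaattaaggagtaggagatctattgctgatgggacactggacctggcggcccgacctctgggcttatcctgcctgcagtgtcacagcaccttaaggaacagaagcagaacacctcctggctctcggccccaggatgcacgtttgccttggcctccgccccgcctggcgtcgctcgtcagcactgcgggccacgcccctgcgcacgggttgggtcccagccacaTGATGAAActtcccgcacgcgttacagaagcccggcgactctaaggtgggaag
In *Nupr1* and *Chac1* the capitals spell the same letters, at -110 to -103 and at -193 to -186, where -1 is the base before the start. In *Trib3* the core lay behind the start, at 15 to 22. In these 3 promoters the core runs on the strand opposite to the gene, and in *Asns* it runs with the gene at -23 to -16. A match is a description of the letters and not of binding. The genes lie apart from one another, on 7 chromosomes. *Chac1* and *Trib3* share chromosome 2, *Atf5* and *Nupr1* chromosome 7, and *Ddit3* and *Ddit4* chromosome 10, while *Sesn2* is on chromosome 4, *Asns* on 6, *Stc2* on 11 and *Atf4* on 15.

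**Figure D1:**
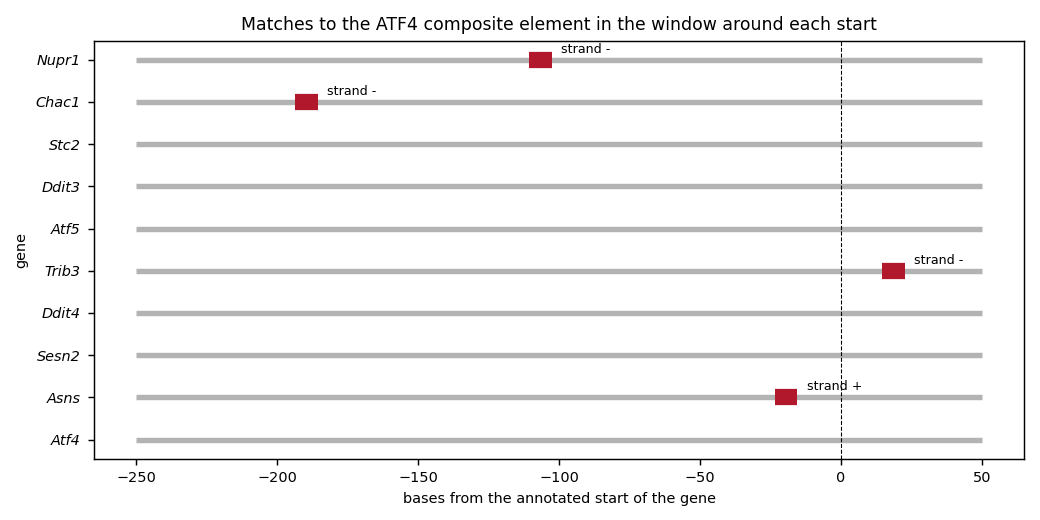
Position of matches to the core of the ATF4 composite element (red) in the window around the annotated start of each of the 10 genes, in bases from the start on the horizontal axis. Of the 10 genes, 4 hold a match, and the match in *Trib3* lies behind the start.

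Most of these genes had their highest signal in ESCs. Every iPGC array lay below both ESC arrays for 8 of the 10 genes, the exceptions being *Atf4* and *Asns*, where 28.1% of all 12200 genes tested lay so. Every somatic array lay below both ESC arrays for 9 of the 10, the exception being *Atf4*, where 39.5% of all genes lay so. The median log2 difference over the 10 genes was -1.93 for iPGCs minus ESCs, beside 0.04 over all genes, and -1.76 for somatic cells minus ESCs, beside -0.02 over all genes. The members were chosen with these contrasts in view, so nothing is read from the counts. In sorted bulk RNA, fewer expressing cells and less RNA per cell cannot be told apart.

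**Figure D2:**
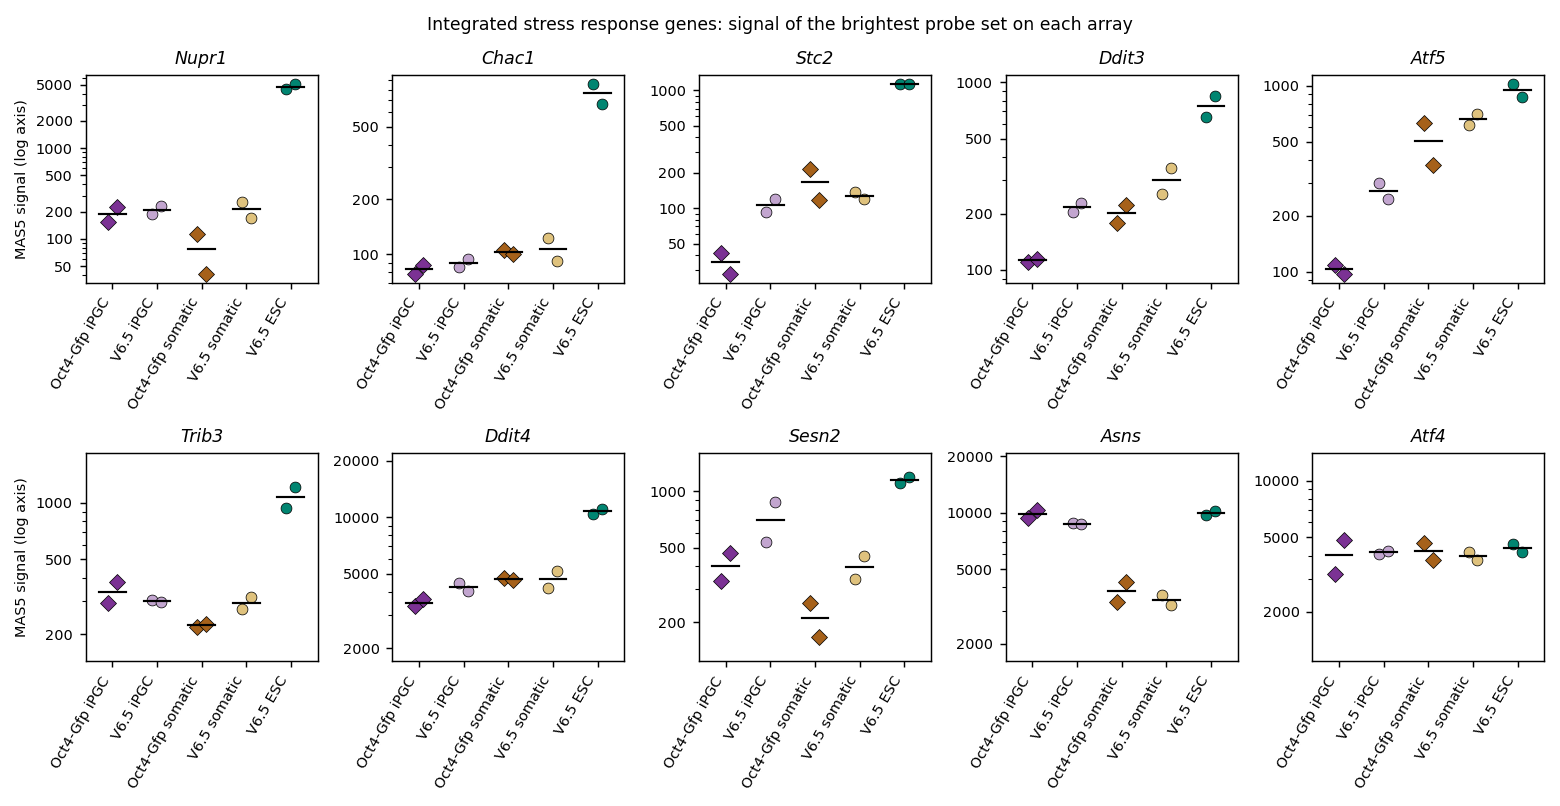
Signal of the brightest probe set of each of the 10 genes on each array (points, log axis) by group, with the mean of the 2 arrays of a group (bars). The ESC arrays lie above the other arrays in 8 panels, the iPGC and ESC arrays lie together for *Asns*, and all groups overlap for *Atf4*.

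Among the transcription regulators, the ratio of ESCs to iPGCs ran from 1.08 to 24.1. *Nupr1*, a small stress-induced nuclear protein that acts downstream of ATF4, had signals of 152 and 224 on the Oct4-Gfp iPGC arrays and 188 and 230.1 on the V6.5 iPGC arrays. It had 112 and 41.3 in Oct4-Gfp somatic cells, 255 and 171 in V6.5 somatic cells, and 4474 and 5102 in ESCs. iPGCs and somatic cells overlapped, and the ESC mean was 24.1-fold that of iPGCs and 33.1-fold that of somatic cells, the widest ratios among the 10 genes. A dimmer probe set of *Nupr1* gave 22.9-fold and 30.01-fold.
*Ddit3*, which encodes CHOP, a regulator that promotes cell death when stress persists, had signals of 111 and 114 in Oct4-Gfp iPGCs and 204 and 228 in V6.5 iPGCs. Somatic cells had 179 and 223 in the Oct4-Gfp line and 254 and 349.5 in the V6.5 line, and ESCs had 657 and 846. The ESC mean was 4.58-fold that of iPGCs and 2.99-fold that of somatic cells. A second probe set of *Ddit3* was dim, at 21.6 to 102 in iPGCs, 70.5 to 115 in somatic cells and 86.8 to 89.2 in ESCs, and its groups overlapped.
*Trib3*, a pseudokinase that inhibits ATF4 and CHOP in a feedback loop, had signals of 293 and 377 in Oct4-Gfp iPGCs and 302 and 297 in V6.5 iPGCs. It had 217 and 227 in Oct4-Gfp somatic cells and 271 and 316 in V6.5 somatic cells, against 944 and 1215 in ESCs. The ESC mean was 3.40-fold that of iPGCs and 4.18-fold that of somatic cells, and the second probe set gave 4.57-fold and 5.76-fold.
*Atf5*, a bZIP factor related to ATF4 and likewise controlled in translation, was graded. It had signals of 108 and 97.7 in Oct4-Gfp iPGCs, 299 and 248 in V6.5 iPGCs, with 629.7 and 378 in Oct4-Gfp somatic cells, 617 and 704 in V6.5 somatic cells, and 1025 and 872 in ESCs. No array of 1 cell type overlapped with another cell type, and the ESC mean was 5.04-fold that of iPGCs and 1.63-fold that of somatic cells.
*Atf4* itself gave 2 readings. Its brightest probe set, whose name carries the suffix x, had 3175 and 4840.4 in Oct4-Gfp iPGCs and 4099 and 4213 in V6.5 iPGCs, with 4681, 3796, 4161 and 3804 on the somatic arrays and 4629 and 4179.8 on the ESC arrays, so that all cell types overlapped. The suffix marks a probe set with probes that also match other transcripts. Another probe set of *Atf4*, nearly as bright and without the suffix, had 2974 to 3219.9 on the iPGC arrays, 3551 to 4014 on the somatic arrays and 5433 to 5927 on the ESC arrays, with no overlap between cell types. Its ESC mean was 1.84-fold that of iPGCs and 1.49-fold that of somatic cells. The third probe set of *Atf4* lay within background on 3 iPGC and 2 somatic arrays and was not tested.

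Among the effectors, *Chac1* and *Stc2* had the widest differences. *Chac1*, a glutathione-degrading enzyme induced by ATF4, had signals of 78.3 and 87.7 in Oct4-Gfp iPGCs and 85.4 and 94.5 in V6.5 iPGCs. It had 106 and 101 in Oct4-Gfp somatic cells, 122 and 92.2 in V6.5 somatic cells, and 859.6 and 667 in ESCs. The 8 day 6 arrays stayed within 78.3 to 122 in both lines and both cell types, and the ESC mean was 8.83-fold that of iPGCs and 7.25-fold that of somatic cells.
*Stc2*, a secreted glycoprotein, had signals of 41.8 and 27.7 in Oct4-Gfp iPGCs and 92.8 and 120.0 in V6.5 iPGCs. Somatic cells had 214 and 118 in the Oct4-Gfp line and 136 and 119 in the V6.5 line, and ESCs had 1131 and 1128. The ESC mean was 16.0-fold that of iPGCs and 7.70-fold that of somatic cells. The 2 dimmer probe sets of *Stc2* had 237, 245, 232 and 223 in ESCs and lay at 6.42 to 27.6 in iPGCs and 7.50 to 51.8 in somatic cells, partly within background.
*Ddit4* and *Sesn2* encode inhibitors of the growth kinase complex mTORC1. *Ddit4* had signals of 3368 and 3644 in Oct4-Gfp iPGCs, 4449.5 and 4024 in V6.5 iPGCs, with 4729 and 4629 in Oct4-Gfp somatic cells and 4201 and 5158 in V6.5 somatic cells, against 10339.8 and 11122 in ESCs. The ESC mean was 2.77-fold that of iPGCs and 2.29-fold that of somatic cells. *Sesn2* had 331 and 467 in Oct4-Gfp iPGCs, 537 and 877 in V6.5 iPGCs, with 254 and 166 in Oct4-Gfp somatic cells and 339 and 449.6 in V6.5 somatic cells, against 1105 and 1195 in ESCs. For *Sesn2* the V6.5 iPGC replicate 2 came nearest to ESCs, and the ESC mean was 2.08-fold that of iPGCs and 3.80-fold that of somatic cells.
*Asns*, asparagine synthetase, a much studied ATF4 target, departed from the other effectors. It had signals of 9396 and 10399.5 in Oct4-Gfp iPGCs and 8785 and 8734 in V6.5 iPGCs. Somatic cells had 3349 and 4272 in the Oct4-Gfp line and 3657 and 3232 in the V6.5 line, and ESCs had 9761 and 10234. The iPGC arrays overlapped with the ESC arrays (1.07-fold), whereas the ESC mean was 2.76-fold that of somatic cells. The second probe set of *Asns* gave 1.09-fold and 2.89-fold, and there every iPGC array lay below both ESC arrays.

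**Figure D3:**
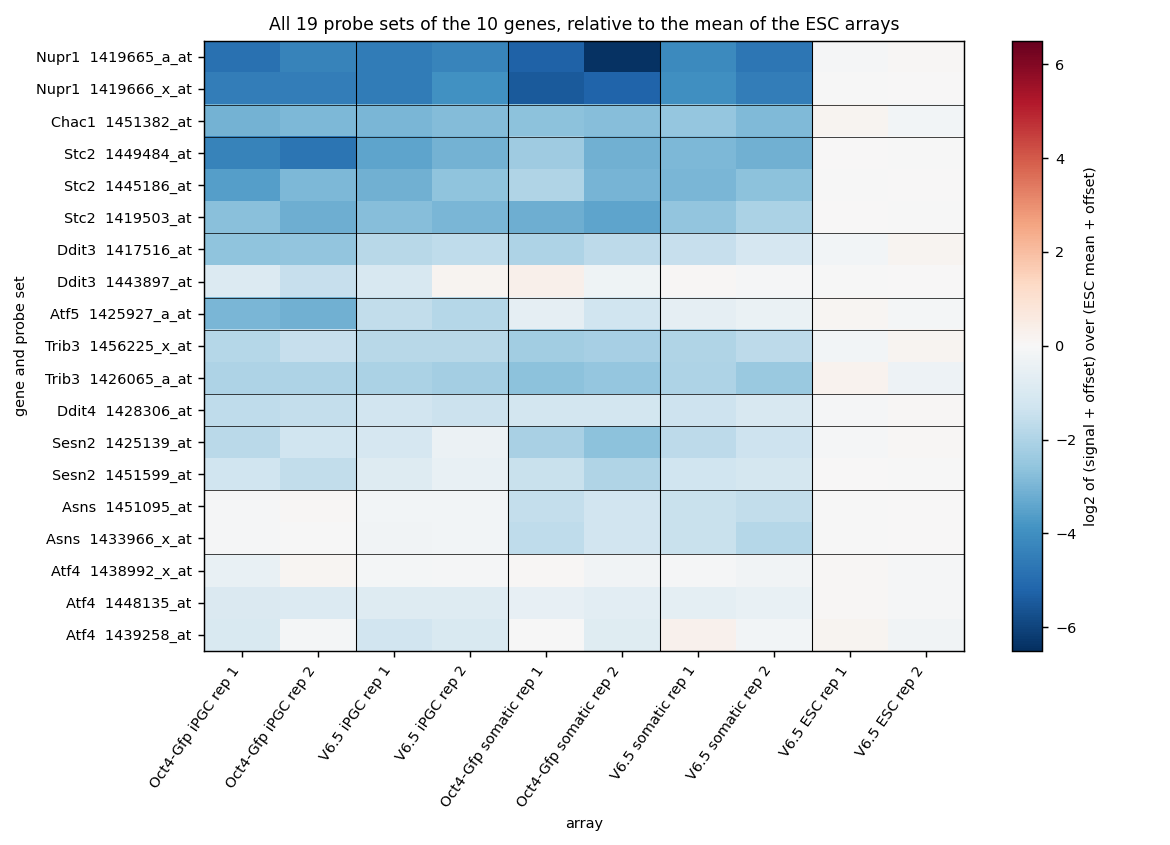
Each of the 19 probe sets (rows, by gene) on each of the 10 arrays (columns), as the log2 of signal plus an offset of 14.8 over the ESC mean plus the same offset, in colour. Probe sets of 1 gene look alike for *Nupr1*, *Trib3*, *Asns* and *Sesn2*, whereas the x probe set of *Atf4* stays near the ESC level. The dim second probe set of *Ddit3* averages near that level in somatic cells (log2 difference 0.01) and below it in iPGCs (-0.81, standard error 0.34).

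Compared with somatic cells of the same day, iPGCs had more *Asns* and *Sesn2* and less *Atf5*, *Stc2*, *Ddit3* and *Ddit4*, by the brightest probe set of each gene. This comparison did not choose the genes, although both the iPGC and the somatic arrays entered their choice. At an adjusted p under 0.05 from limma, 2 genes were higher and 4 lower in iPGCs, where 33.7% of all genes tested were higher and 29.8% lower. *Asns* averaged 9329 ± 775 in iPGCs and 3628 ± 466 in somatic cells (SD, n = 4 each), a log2 difference of 1.36 (standard error 0.11, adjusted p = 2.06e-05 from limma). *Atf5* averaged 188 ± 101 in iPGCs and 582 ± 142 in somatic cells (SD, n = 4 each), a log2 difference of -1.66 (standard error 0.17, adjusted p = 6.95e-05 from limma). For these 2 genes all iPGC arrays stood apart from all somatic arrays, in both lines, where 29.5% of all genes stood apart as higher in iPGCs and 26.1% as lower.
For the brightest probe sets of the other genes the arrays of the 2 cell types overlapped. *Sesn2* was higher in iPGCs by 0.84 on the log2 scale (standard error 0.21, adjusted p = 0.00921 from limma). *Stc2* differed by -1.03 (standard error 0.19, adjusted p = 0.00185), *Ddit3* by -0.60 (standard error 0.14, adjusted p = 0.00710) and *Ddit4* by -0.28 (standard error 0.10, adjusted p = 0.0481). On the log2 scale, *Stc2* stood at -1.83 in the Oct4-Gfp line and -0.24 in the V6.5 line, so most of its pooled difference came from 1 line. *Asns* stood at 1.38 in the Oct4-Gfp line and 1.35 in the V6.5 line, and *Sesn2* at 0.89 in the Oct4-Gfp line and 0.79 in the V6.5 line. The 2 dimmer probe sets of *Stc2*, partly within background, stood at only -0.42 (standard error 0.26) and -0.08 (standard error 0.16) over both lines. The dimmer probe set of *Sesn2* stood at 0.41 (standard error 0.15) and that of *Ddit3* at -0.82 (standard error 0.28).
*Nupr1* (0.62, 95% interval 0.01 to 1.24, adjusted p = 0.0775 from limma), *Trib3* (0.29, 0.00 to 0.58, adjusted p = 0.0795), *Chac1* (-0.24, -0.53 to 0.05, adjusted p = 0.131) and *Atf4* (-0.02, -0.36 to 0.32, adjusted p = 0.915) did not pass. The pooled differences of *Nupr1* and *Trib3* came almost wholly from the Oct4-Gfp line. *Nupr1* stood at 1.25 there and -0.004 in the V6.5 line, and *Trib3* at 0.55 and 0.03. The result for *Atf4* holds for its x probe set only. The *Atf4* probe set without the suffix x stood at -0.30 (standard error 0.09). There every iPGC array (2974 to 3219.9) lay below every somatic array (3551 to 4014). The call of *Ddit4* was lost without any 1 of 9 arrays and under 6 further settings, and on V6.5 arrays only, 1 gene passed in each direction, *Asns* higher and *Atf5* lower. That of *Ddit3* was also lost under quantile normalization.

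Between the lines no gene of the response passed the test. In iPGCs of the Oct4-Gfp line against those of the V6.5 line, 0 of 12200 genes passed in limma, although 20.0% of all genes and 4 of the 10 genes had an unadjusted p under 0.05. Both Oct4-Gfp arrays lay below both V6.5 arrays for *Ddit3*, *Atf5*, *Stc2*, *Sesn2* and *Ddit4*, 5 of 10 genes, where 29.0% of all genes lay so. The 2 with the largest differences were *Stc2*, with 34.8 ± 9.97 in Oct4-Gfp iPGCs and 106 ± 19.2 in V6.5 iPGCs (SD, n = 2 each), a log2 difference of -1.29 (95% interval -1.91 to -0.68, adjusted p = 0.0760 from limma), and *Atf5*, with 103 ± 7.49 in Oct4-Gfp iPGCs and 273 ± 36.7 in V6.5 iPGCs (SD, n = 2 each, -1.29, -1.83 to -0.74, adjusted p = 0.0698). *Ddit3* differed by -0.86 (-1.32 to -0.39, adjusted p = 0.0902). *Asns* alone had both Oct4-Gfp arrays above both V6.5 arrays (0.17, -0.19 to 0.53), where 25.8% of all genes lay so.
*Nupr1*, *Chac1*, *Trib3* and *Atf4* overlapped between the iPGC lines, with log2 differences between -0.16 and 0.14. *Chac1* in particular differed by -0.10 (95% interval -0.51 to 0.31). Against the V6.5 ESCs, the log2 difference of *Atf5* was -3.03 in Oct4-Gfp iPGCs and -1.74 in V6.5 iPGCs, and that of *Stc2* was -4.54 in Oct4-Gfp iPGCs and -3.25 in V6.5 iPGCs. *Chac1* stood at -2.98 in Oct4-Gfp iPGCs and -2.88 in V6.5 iPGCs, and *Nupr1* at -4.58 in Oct4-Gfp iPGCs and -4.43 in V6.5 iPGCs.
In somatic cells 0 of the 10 genes passed between the lines in limma, where 0.082% of all genes passed, and 3 of the 10 had an unadjusted p under 0.05, as did 11.8% of all genes. *Nupr1*, *Ddit3*, *Trib3* and *Sesn2* were lower on both Oct4-Gfp arrays than on both V6.5 arrays, 4 of 10 genes, where 22.4% of all genes lay so. *Nupr1* differed by -1.41 on the log2 scale (95% interval -2.28 to -0.54, adjusted p = 0.243 from limma) and *Sesn2* by -0.88 (-1.57 to -0.19, adjusted p = 0.311). The line by cell type interaction (Oct4-Gfp iPGC minus somatic, less V6.5 iPGC minus somatic) passed for 0 of the 10 genes, of which 3 had an unadjusted p under 0.05, and for 0.0082% of all genes, 9.17% of which had an unadjusted p under 0.05. The lowest adjusted p was 0.273 from limma, for *Stc2* (-1.59, 95% interval -2.46 to -0.73).

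The signals were also set against the *Gapdh* ratio of each array. Since no ESC array shares a ratio with an iPGC or somatic array, the ratio and the ESC state cannot be told apart by comparing groups. In the 3 groups whose arrays differed in the ratio by more than 0.05, a bound set after the ratios were seen, the array with the higher ratio had the lower signal in 13 of 30 pairs of gene and group. The 30 pairs rest on only 3 pairs of arrays, and the share over all genes was not counted, so nothing is read from this count. *Atf5* was lower on that array in 3 of 3 groups, *Stc2* and *Ddit4* in 2, *Ddit3* in 0 and the other genes in 1.
With the ratio as a covariate in the fit, the log2 difference of iPGCs minus ESCs stood at -3.98 for *Nupr1* against -4.50 without it, at -3.03 against -2.93 for *Chac1*, at -2.43 against -2.15 for *Ddit3* and at -1.98 against -1.72 for *Trib3*. It stood at -3.06 against -3.90 for *Stc2*, at -1.67 against -2.39 for *Atf5*, at -1.16 against -1.12 for *Sesn2* and at -1.49 against -1.47 for *Ddit4*. For the 2 genes whose iPGC and ESC arrays overlapped, it stood at -0.48 (standard error 0.24) against -0.10 for *Asns* and at -0.32 (standard error 0.39) against -0.12 for *Atf4*. The standard errors grew to between 0.24 and 0.68 over the 10 genes. For somatic cells minus ESCs, *Atf5* stood at -0.12 with the covariate against -0.72 without it, the largest loss in proportion among the 9 genes whose arrays did not overlap there.
Between the iPGC lines the ratio differed as well, and with the covariate the difference of *Atf5* was -0.52 (standard error 0.35) and that of *Stc2* was -0.40 (standard error 0.37), against -1.29 for both without it. That of *Ddit3* was -1.16 (standard error 0.39) against -0.86. For iPGCs minus somatic cells, *Asns* (1.31), *Atf5* (-1.55), *Stc2* (-0.90), *Ddit3* (-0.64) and *Sesn2* (0.83) still passed with the covariate, and *Ddit4* did not (adjusted p = 0.0776 from limma).

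**Figure D4:**
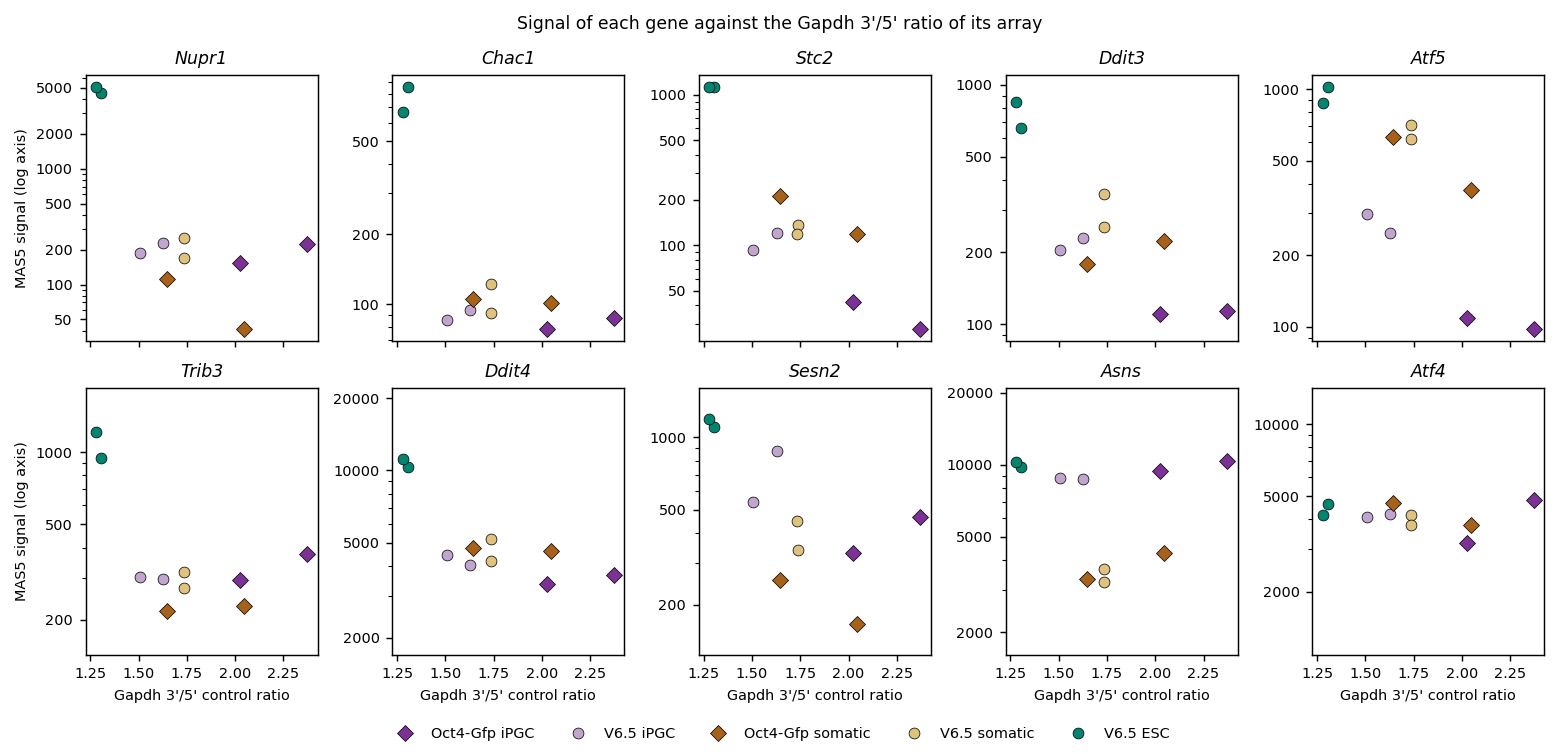
Signal of each of the 10 genes (log axis) against the *Gapdh* 3'/5' ratio of the array, by group (symbols). The ESC arrays stand alone at *Gapdh* ratios of 1.28 and 1.30, and *Chac1* lies at 78.3 to 94.5 on the iPGC arrays, whose ratios run between 1.51 and 2.37.

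Of the other genes of the pathway, many that make amino acids or charge tRNAs were lower in both day 6 cell types, relative to ESCs, and the counts of each list follow. In all, 97 genes of 10 lists were tested, out of 107 listed, none of them among the 10 above. The lists, too, were chosen with earlier results of these data known. Their counts and p-values therefore describe these arrays and are not an independent test. Compared with ESCs, iPGCs had 13 of them at a higher and 42 at a lower level, where 24.5% of all genes were higher and 21.0% lower, and somatic cells had 19 higher and 44 lower, where 32.6% were higher and 34.7% lower. Between iPGCs and somatic cells, 26 were higher and 21 lower in iPGCs (26.8% and 21.6%), below the shares of 33.7% and 29.8% over all genes. The same shares over all genes apply to the counts of each list and marker set below, and some of these lie near or below them. Of the counts in iPGCs, 13 fell to 7 when ESC replicate 1 was left out, to 5 when ESC replicate 2 was, and to 7 on V6.5 arrays only. With the *Gapdh* ratio as a covariate, 0 were higher and 7 lower in iPGCs, and 8 were higher and 25 lower in somatic cells. How many of all genes passed with the covariate was not counted. Nothing is therefore read from the counts with the covariate, here or for the lists below.

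**Figure D5:**
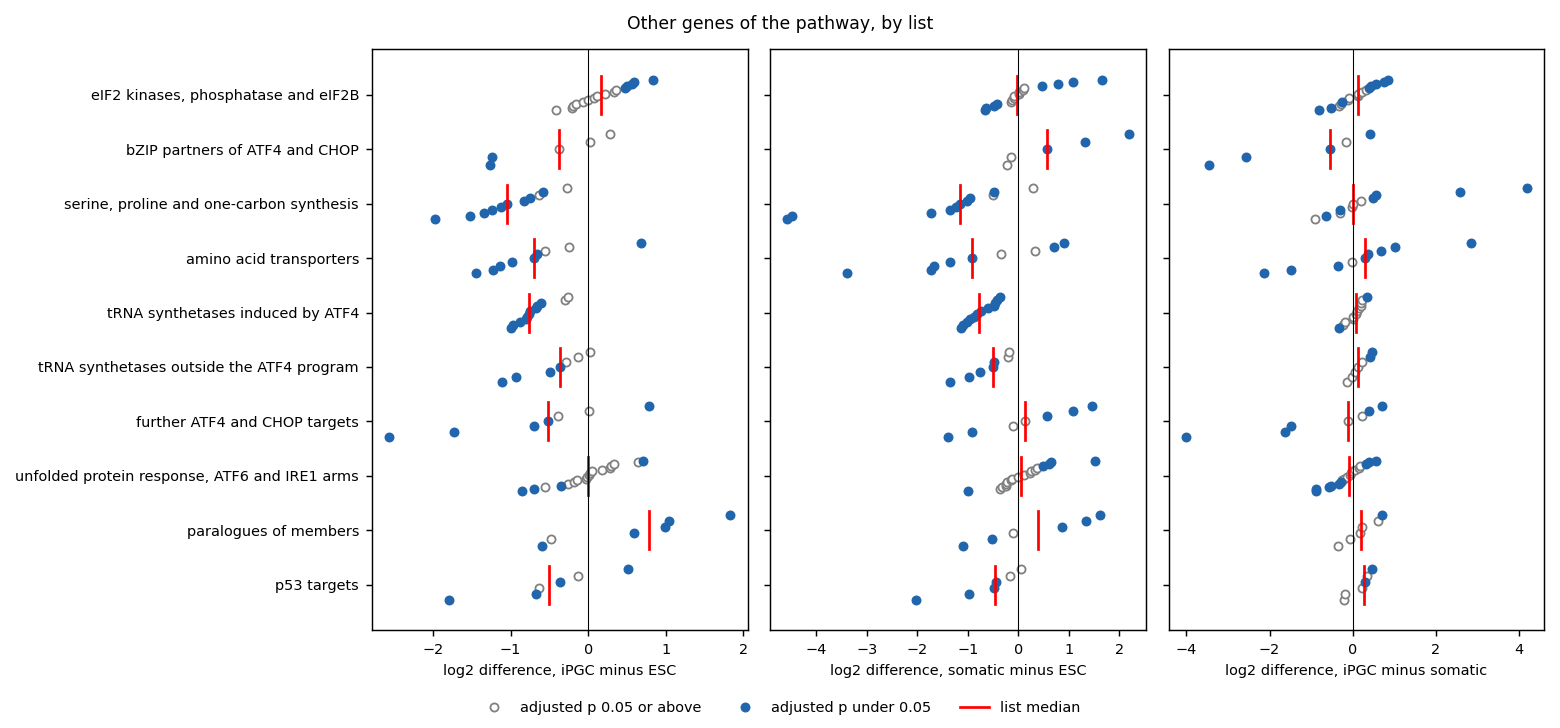
Log2 difference of each gene tested (circles, filled where the adjusted p was under 0.05) and median (red) of the 10 lists of other pathway genes, for iPGCs minus ESCs, somatic cells minus ESCs and iPGCs minus somatic cells. The medians of the synthesis, transporter and synthetase lists lie left of 0 in the first and second panels, although single transporters such as *Slc38a2* lie right of it. The medians of eIF2 control (0.16 and -0.03) and of the unfolded protein response (0.00 and 0.06) lie nearer to 0 there, with single genes on both sides.

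Of 11 genes of serine, proline and one-carbon synthesis, 9 were lower in iPGCs and 0 higher, relative to ESCs (median log2 difference -1.05), and 9 were lower and 0 higher in somatic cells (-1.15). With the *Gapdh* covariate, 4 were lower in iPGCs and 8 in somatic cells. *Shmt2*, the mitochondrial serine hydroxymethyltransferase, averaged 1292 ± 48.5 in iPGCs (SD, n = 4), 1599.8 ± 181 in somatic cells (SD, n = 4) and 3755 ± 221 in ESCs (SD, n = 2), with a log2 difference of -1.53 between iPGCs and ESCs (adjusted p = 0.000155 from limma). *Psph* and *Mthfd2*, enzymes of serine synthesis and of the mitochondrial folate cycle, differed by -1.34 and -1.24. *Cth*, which makes cysteine from cystathionine, was at -1.98 in iPGCs and -4.58 in somatic cells relative to ESCs, and it was higher in iPGCs than in somatic cells by 2.60 (adjusted p = 1.53e-05 from limma). Like *Asns*, it was thus more abundant in iPGCs than in their somatic neighbours.
Of 9 amino acid transporters, 6 were lower and 1 higher in iPGCs, and 5 lower and 2 higher in somatic cells. With the *Gapdh* covariate, 1 was lower in iPGCs and 5 in somatic cells, and 0 were higher in either. *Slc1a5*, a glutamine transporter, averaged 518 ± 19.2 in iPGCs (SD, n = 4), 424 ± 74.6 in somatic cells (SD, n = 4) and 1429 ± 34.8 in ESCs (SD, n = 2). *Slc3a2*, the heavy chain shared by several transporters, differed by -0.99 in iPGCs. *Slc43a1*, a transporter of large neutral amino acids, was lower in iPGCs (-1.23) and higher in somatic cells (0.91). *Slc38a2*, a neutral amino acid transporter, was the 1 that was higher in iPGCs (0.68, adjusted p = 0.0137 from limma), and it was not called without ESC replicate 2, when 1 transporter in place of 2 was higher in somatic cells.
Among tRNA synthetases known to be induced by ATF4, 10 of 12 were lower in iPGCs and 12 of 12 in somatic cells, and 0 were higher in either. With the *Gapdh* ratio as a covariate these counts were 1 and 7. Examples in iPGCs were *Cars* (-0.99), *Yars* (-0.97), *Sars* (-0.88) and *Mars1* (-0.76), which charge tRNAs with cysteine, tyrosine, serine and methionine. Of 7 synthetases not counted in that program, 4 were lower in iPGCs and 5 in somatic cells, *Vars* by -1.11 and *Farsa* by -0.93 in iPGCs, with *Hars* at -0.49 and *Kars* at -0.37. The 4 became 2 without either ESC array or without Oct4-Gfp iPGC replicate 2, and with the *Gapdh* covariate 0 were lower in iPGCs and 2 in somatic cells. The composite core stood in 5 of 8 synthetase genes of the first list with an entry in the promoter table (*Aars*, *Gars*, *Iars*, *Tars* and *Yars*). It stood in 0 of 4 of the second and in 0 of 15 genes of the ATF6 and IRE1 arms, against the 3.97% of all windows given above. Of the other lists, serine, proline and one-carbon synthesis had the core in 1 of 10 genes, eIF2 control in 1 of 14 and transporters in 2 of 7. The bZIP partners had it in 2 of 5, further targets of ATF4 and CHOP in 3 of 8, paralogues in 0 of 6 and p53 targets in 0 of 5. Whether genes with the core differed more from ESCs was not tested. The lists were not set against each other in a test.
Of 16 genes for eIF2 kinases, eIF2 subunits, the phosphatase and eIF2B, 5 were higher and 0 lower in iPGCs, and 4 were higher and 4 lower in somatic cells. *Dnajc3*, an inhibitor of the kinases PERK and PKR, averaged 829.6 ± 63.8 in iPGCs (SD, n = 4), 1481 ± 192 in somatic cells (SD, n = 4) and 461 ± 50.9 in ESCs (SD, n = 2), with a log2 difference of 0.83 between iPGCs and ESCs (adjusted p = 0.00239 from limma). *Ppp1r15b*, the constitutive subunit that directs phosphatase to eIF2, differed by 0.59, *Eif2ak4*, the amino acid sensing kinase GCN2, by 0.56, and *Eif2b5*, a subunit of the exchange factor eIF2B, by 0.47. Of the 5, 2 genes were counted when ESC replicate 1 was left out or on V6.5 arrays only, 1 when ESC replicate 2 was left out and 3 when Oct4-Gfp iPGC replicate 2 was. The 4 lower in somatic cells became 2 without ESC replicate 1, and with the *Gapdh* covariate 0 were higher or lower in iPGCs and 2 higher and 0 lower in somatic cells.
Of 5 bZIP partners of ATF4 and CHOP, 3 were lower and 1 higher in iPGCs than in somatic cells. *Atf3*, which ATF4 induces, averaged 45.0 ± 19.1 in iPGCs (SD, n = 4), 334 ± 85.4 in somatic cells (SD, n = 4) and 122 ± 16.7 in ESCs (SD, n = 2). It was lower in iPGCs than in somatic cells by -2.57 on the log2 scale (adjusted p = 4.85e-06 from limma), and *Jdp2*, a related repressor, by -3.45 (adjusted p = 1.37e-06). *Nfe2l2*, the regulator of the antioxidant response, was higher in iPGCs than in somatic cells by 0.43 (adjusted p = 0.00779). Relative to ESCs, 2 of the 5 were lower in iPGCs and 3 higher in somatic cells. *Cebpg*, a dimer partner of ATF4, was at -0.38 in iPGCs (adjusted p = 0.104), and *Nfe2l2* at 0.28 (adjusted p = 0.109). With the *Gapdh* covariate, 0 were lower in iPGCs and 2 higher in somatic cells, relative to ESCs.
Of 7 further targets of ATF4 and CHOP, 4 were lower and 1 higher in iPGCs, and 2 lower and 3 higher in somatic cells. With the *Gapdh* covariate, 1 was lower and 0 higher in iPGCs, and 2 lower and 1 higher in somatic cells. *Vldlr*, a lipoprotein receptor, averaged 112 ± 38.0 in iPGCs (SD, n = 4), 2100.3 ± 876 in somatic cells (SD, n = 4) and 720.0 ± 131 in ESCs (SD, n = 2). *Herpud1*, a component of the degradation of endoplasmic reticulum proteins, differed by -1.74 in iPGCs (adjusted p = 0.00138 from limma) and was at -0.12 in somatic cells (adjusted p = 0.692). *Ero1a*, an oxidase of the endoplasmic reticulum, differed by -0.70 in iPGCs and -1.40 in somatic cells. *Bcl2l11*, the death gene *Bim*, was higher in iPGCs (0.78, adjusted p = 0.00121 from limma) and in somatic cells (0.56, adjusted p = 0.00204).
In the ATF6 and IRE1 arms of the unfolded protein response, 3 of 18 genes were lower and 1 higher in iPGCs, with a median log2 difference of 0.00, and 1 was lower and 4 higher in somatic cells. *Sdf2l1*, a chaperone cofactor, differed by -0.85 in iPGCs, *Atf6* by -0.70 and *Manf*, a secreted factor, by -0.35, and *Dnajb9*, a cochaperone, by 0.70. The main chaperone of the endoplasmic reticulum, *Hspa5*, was at -0.02 in iPGCs (adjusted p = 0.884 from limma) and 0.22 in somatic cells (adjusted p = 0.133). Without ESC replicate 2, 1 was lower and 0 higher, and with the *Gapdh* covariate 0 passed in iPGCs. The 1 higher became 2 without V6.5 iPGC replicate 1 or any 1 of the somatic arrays.
Of 6 paralogues of the 10 genes, relative to ESCs, 4 were higher in iPGCs and 1 lower. *Sesn3*, a sestrin controlled by FoxO factors, averaged 1262 ± 157 in iPGCs (SD, n = 4), 1078 ± 36.1 in somatic cells (SD, n = 4) and 345 ± 65.4 in ESCs (SD, n = 2), a log2 difference of 1.83 between iPGCs and ESCs (adjusted p = 0.000267 from limma). *Sesn1*, a sestrin induced by p53, differed by 0.98 and *Trib2* by 1.04 in iPGCs, opposite in sign to *Sesn2* and *Trib3*, and *Ddit4l* differed by -0.60. The 4 became 2 without either ESC array, and the 1 lower became 2 without ESC replicate 1. Of 6 targets of p53, which also acts on *Sesn2* and *Ddit4*, 3 were lower and 1 higher in iPGCs. *Bbc3*, which encodes the death protein Puma and is a target of CHOP as well, differed by -1.79, *Zmat3* by -0.68, *Ccng1* by -0.37 and *Trp53inp1* by 0.51. The count of 3 was 1 when ESC replicate 1 was left out and 0 when ESC replicate 2 was, and the 1 higher gene was not called when ESC replicate 1 was left out. With the *Gapdh* covariate, 0 paralogues and 0 targets of p53 passed in iPGCs.

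Markers of feeder cells and of dissociation stress were read beside these results. The summed signal of 12 fibroblast markers was 530 to 878 in iPGCs, 13172 to 20043 in somatic cells and 923 to 1082 in ESCs, and of the 10 tested, 3 stood higher in iPGCs and 4 lower, relative to ESCs (2 lower without either ESC array). *Lox*, *Postn*, *Lum* and *Dcn* lay within background on every iPGC array, *Lox* on every somatic array and *Twist2* on every ESC array. Like most of the 10 genes, *Lox* and *Thy1* were highest in ESCs. *Lox* had 4.53 to 8.62 in iPGCs, 9.52 to 16.4 in somatic cells and 127 to 199 in ESCs, and *Thy1* had 104 to 234 in iPGCs, 107 to 299 in somatic cells and 424 to 447 in ESCs. These were the 2 fibroblast markers that were lower in somatic cells than in ESCs, while 8 of the 10 were higher. Mesoderm also expresses collagens, *Pdgfra* and *Twist2*, so the somatic sum does not measure feeder cells. For 8 genes of the immediate early response, the sum was 6006 to 7646 in iPGCs, 8515 to 10558 in somatic cells and 10072 to 10867 in ESCs. Of the 7 tested, 5 were lower in iPGCs and 0 higher, relative to ESCs, *Fos* by -2.08 on the log2 scale (2 lower without ESC replicate 1, 3 without ESC replicate 2 or Oct4-Gfp iPGC replicate 1). In somatic cells 2 were higher and 2 lower than in ESCs, with *Fos* at 0.09 (adjusted p = 0.778 from limma). The part of dissociation, feeders and RNA quality in the levels of the 10 genes was not tested.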

How the data were processed

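Transcripts were measured on 10 arrays in 5 sorted populations, grouped by the labels. The deposited table holds signal intensity, not logged. The submitters' notes credit it to MAS5 with no version, and the authors scaled it to a trimmed mean of 500 with 2% left out at each end. The paper's methods name D-Chip, whose values were not used here. The log2 of the signal plus 14.8, the 25th percentile of the table, was used. After leaving out 64 control probe sets, those exceeding the median of the array on 2 or more arrays (26372) were tested with limma 3.58.1 in R 4.3.3 (5 groups in 1 model, Benjamini-Hochberg over all probe sets tested, 5 residual and 2.92 prior degrees of freedom). Fits were tested on simulated data. Cell type contrasts average the lines. The platform's annotation gave 1 symbol for 34958 probe sets, several for 932 and none for 9211, and the brightest probe set with 1 symbol stood for a gene, the tested 26372 covering 12200 genes. Probe sets with signals below the array's olfactory receptor background were called within background.

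The 10 genes and the lists were chosen with earlier results of these data known. Besides the 10 genes, up to 4 of each list were named, those with the largest differences between iPGCs and ESCs in each direction among genes called without overlap, filled up by the smallest adjusted p. *Hspa5*, *Fos*, *Lox*, *Thy1* and the synthetase genes with a promoter match were named after their values were seen. Alternatives were a doubled offset, a floor, no filter, a stricter filter, quantile normalization, only the arrays compared, limma-trend, the replicate number as a block, the *Gapdh* ratio as a covariate, the mean of a gene's probe sets, V6.5 arrays only and each array left out. Plots were drawn with matplotlib 3.10.9.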

Additional observations from a re-analysis of the deposited data

Results flagged for a closer look

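Within cell types, 20 sets of 4 arrays were examined for an array far from the others (10 genes in iPGCs and in somatic cells), and chance flags about 1 in 20. The signal of *Trib3* on Oct4-Gfp iPGC replicate 2 was 377.5, where the other 3 iPGC arrays lay between 293 and 302. On the log2 scale, its gap to the nearest took up 0.877 of the range. The same array had the highest *Gapdh* ratio, 2.37, and the second probe set of *Trib3* read 134 there and 116 to 135 on the other iPGC arrays.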

How the results depend on the processing

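For the 10 genes between iPGCs and somatic cells, the count of 2 higher became 4 under quantile normalization and 4 with the mean of a gene's probe sets, *Nupr1* and *Trib3* being added, and 1 on V6.5 arrays only, where the 4 lower became 1. The call of *Ddit3* was lost under quantile normalization and on V6.5 arrays only. With each array left out in turn, the higher count was 2 to 3 and the lower count 3 to 4. Between the iPGC lines, 0 passed with any array left out (0 to 0), and limma-trend called 2 lower, *Atf5* and *Stc2*. Between the somatic lines and for the difference between lines the counts were 0 to 0. Genes apart from ESCs on every array numbered 8 to 9 of 10 for iPGCs and 9 to 10 for somatic cells with an array left out.

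For the pathway lists in iPGCs against ESCs, the 13 higher became 0 with the *Gapdh* covariate, 7 with the mean of probe sets and 7 on V6.5 arrays only, and 5 to 14 with an array left out. The 42 lower became 7 with the covariate and 32 to 44 with an array left out. In somatic cells against ESCs, the 19 higher became 8 and the 44 lower became 25 with the covariate, and 16 to 21 and 36 to 43 with an array left out. Between iPGCs and somatic cells the ranges were 21 to 26 higher and 15 to 22 lower. Shares over all genes were not counted under the alternatives, and the cause of these shifts was not tested.

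Among differences of single genes from ESCs, 3 changed sign, each of them overlapping or near 0. These were *Atf4* in iPGCs against ESCs (0.028 without Oct4-Gfp iPGC replicate 1, with a range of -0.28 to 0.028 over the arrays left out), *Atf4* in somatic cells against ESCs (0.043 under quantile normalization) and *Asns* in iPGCs against ESCs (0.19 under quantile normalization). The other differences from ESCs kept their direction under the alternatives run. On V6.5 arrays only, iPGCs minus somatic cells changed sign for *Nupr1* (-0.004 against 0.62) and *Atf4* (0.06 against -0.02). With the *Gapdh* covariate, the difference between the iPGC lines changed sign for *Nupr1* (0.40 against -0.16), *Trib3* (-0.14 against 0.14) and *Asns* (-0.23 against 0.17). Sign changes outside the differences from ESCs are not listed in full.

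The replicate numbers showed no consistent pairing of the arrays, since the deviations of arrays with the same number correlated between -0.292 and 0.262. For iPGCs and somatic cells of the same line the correlation was 0.134 (Oct4-Gfp) and 0.014 (V6.5). With 2 arrays per group this cannot exclude a shared culture or sort. With the replicate number as a block, iPGCs had 2 of the 10 genes above and 3 below somatic cells, *Ddit4* being lost, and iPGCs had 13 pathway genes above and 40 below ESCs. The replicate block changed no other call of the 10 genes. Crossed pairing, chosen after seeing the data, called 2 of the 10 genes lower between the iPGC lines and 0 between the somatic lines. With 2 arrays per group and no detection calls, small differences of dim probe sets were not detectable.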

Other observations

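Among 12190 other genes tested, those most like *Ddit3* over the 10 arrays on the log2 scale were *Mbd3* (Pearson r 0.980), *Cstb*, *C330007P06Rik*, *Mvb12a* and *Tmsb10* (0.970). Those most like *Nupr1* were *Bcl3* (0.978), *Rps25*, *Txn2*, *Vmac* and *Muc3* (0.971). These values are a description, in which the difference between ESCs and the other arrays is shared by all points. *Bcl3*, a nuclear partner of NF-kappaB, averaged 131 ± 16.3 in iPGCs (SD, n = 4), 131 ± 46.4 in somatic cells (SD, n = 4) and 938 ± 13.3 in ESCs (SD, n = 2). *Mbd3*, a subunit of the NuRD complex, averaged 441 ± 91.5 in iPGCs (SD, n = 4), 508 ± 74.5 in somatic cells (SD, n = 4) and 770.4 ± 65.9 in ESCs (SD, n = 2).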
